A study of Mus musculus with 24 samples.

Results

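In 24 mouse liver small RNA libraries, 9 mature miRNAs that are not typical of liver were examined. Of these, mmu-miR-9-5p, mmu-miR-9-3p, mmu-miR-124-3p, mmu-miR-138-5p, mmu-miR-129-5p, mmu-miR-7b-5p and mmu-miR-218-5p are known from neurons, and mmu-miR-10b-5p and mmu-miR-615-3p are encoded inside Hox gene clusters; the prefix for mouse is left out from here on. These 9 of the 1908 miRNAs in the count table (1324 of them with a count) were chosen by their counts, which stood very high in a single lean library, RCD library 3, and low elsewhere. Their height in RCD library 3 is therefore the reason they are here and not a finding; it is described, and nothing rests on it. The 3 groups held 8 C57Bl/6J mice each. AM132 mice were made obese by 11 weeks of high fat diet and given a 16-mer locked nucleic acid oligonucleotide complementary to miR-132. AM608 mice had the same diet and received a 15-mer complementary to the primate miR-608, the control oligonucleotide. Both oligonucleotides were injected intravenously at 3.3 mg/kg on 3 days, and livers were taken 7 days later. RCD mice were of matched age, stayed lean on regular chow and, as far as the labels say, were not injected. Diet and injection cannot be told apart in either comparison with RCD, because no uninjected obese mice are among the libraries. The labels say that hypothalamus was collected besides liver; those samples are not analysed here.

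A mature miRNA is a short RNA that guides Argonaute proteins to messenger RNAs matching its seed, the bases near its 5′ end, and so lowers their translation and stability. miR-124 is the classic neuronal miRNA and promotes neuronal over non-neuronal splicing and gene programmes. miR-9, with both arms of its hairpin in use, acts in neural progenitors and neurons. Hepatocytes, in contrast, are dominated by miR-122. Hox clusters lay down position along the body axis and carry their own miRNAs, miR-10, miR-196 and miR-615, which are found in trunk and caudal tissues.

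Mature sequences show what was counted, how the 2 arms of miR-9 differ, and how little separates miR-7b-5p and miR-10b-5p from their abundant relatives. They were read from RefSeq on GRCm38 for 8 of the 9 miRNAs; miR-124-3p is given by name only. Capitals mark the seed, bases 2 to 8 counted from the 5′ end, and all 8 seeds are distinct.
miR-9-5p: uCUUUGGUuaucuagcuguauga
miR-9-3p: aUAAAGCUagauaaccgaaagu
miR-138-5p: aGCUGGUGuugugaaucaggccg
miR-129-5p: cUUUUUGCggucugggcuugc
miR-7b-5p: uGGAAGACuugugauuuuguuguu
miR-218-5p: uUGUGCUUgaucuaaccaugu
miR-10b-5p: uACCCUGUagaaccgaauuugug
miR-615-3p: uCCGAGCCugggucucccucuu

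Relatives with the same seed are shown with the differing base in capitals. miR-7b-5p differs from miR-7a-5p by A10U and carries 1 more base at its 3′ end, and miR-10b-5p differs from miR-10a-5p by U12A, positions being counted from 1 at the 5′ end. A rule that tolerates a mismatch could move counts between these pairs, and the authors' rule is not given in the sources used here.
miR-7a-5p: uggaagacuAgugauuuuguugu
miR-7b-5p: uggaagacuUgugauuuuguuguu
miR-10a-5p: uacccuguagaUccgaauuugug
miR-10b-5p: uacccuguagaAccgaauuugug

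The 8 sequences lie at 12 loci in the annotation. Mature miR-10b-5p lies at chr2:74726074-74726096 on the plus strand, inside introns of Hoxd3 and Hoxd4, and miR-615-3p at chr15:103014969-103014990 on the plus strand, inside an intron of Hoxc5. miR-218-5p has a copy in an intron of Slit2 (chr5:48223966-48223986) and one in an intron of Slit3 (chr11:35616840-35616860), axon guidance genes. miR-9 is encoded at 3 loci, each within a long noncoding RNA gene, and miR-129-5p and miR-138-5p at 2 loci each. miR-7b-5p has 1 locus, chr17:56243017-56243040, outside any annotated gene. Reads of a mature sequence with several loci cannot be assigned to one of them.

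Library totals ranged from 5689143 to 8734721 counts and that of RCD library 3, at 7170131, lay within this range. Its TMM factor, the composition correction of edgeR, was 1.34, against 0.827 to 1.24 in the other 23 libraries, and it held 897 miRNAs with a count against 709 to 832. The labels only number the libraries within a group, so p-values measure the spread between these libraries. The miR-132 check followed the labels: miR-132-3p had 0 counts in every AM132 library, 92 to 341 in AM608 and 69 to 339 in RCD. miR-122-5p, the hepatocyte miRNA, took 15.7% of the counts of RCD library 3 and 20.04 to 28.2% in the others, so all libraries carried the liver marker. In total the 9 miRNAs held 77777 counts in RCD library 3, or 1.08% of its counts (95% Wilson interval 1.08 to 1.09, counting error only), and 0.00732 to 0.0477% in the others. RCD library 4 was the highest of those, with 3402 counts.

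**Figure D1:**
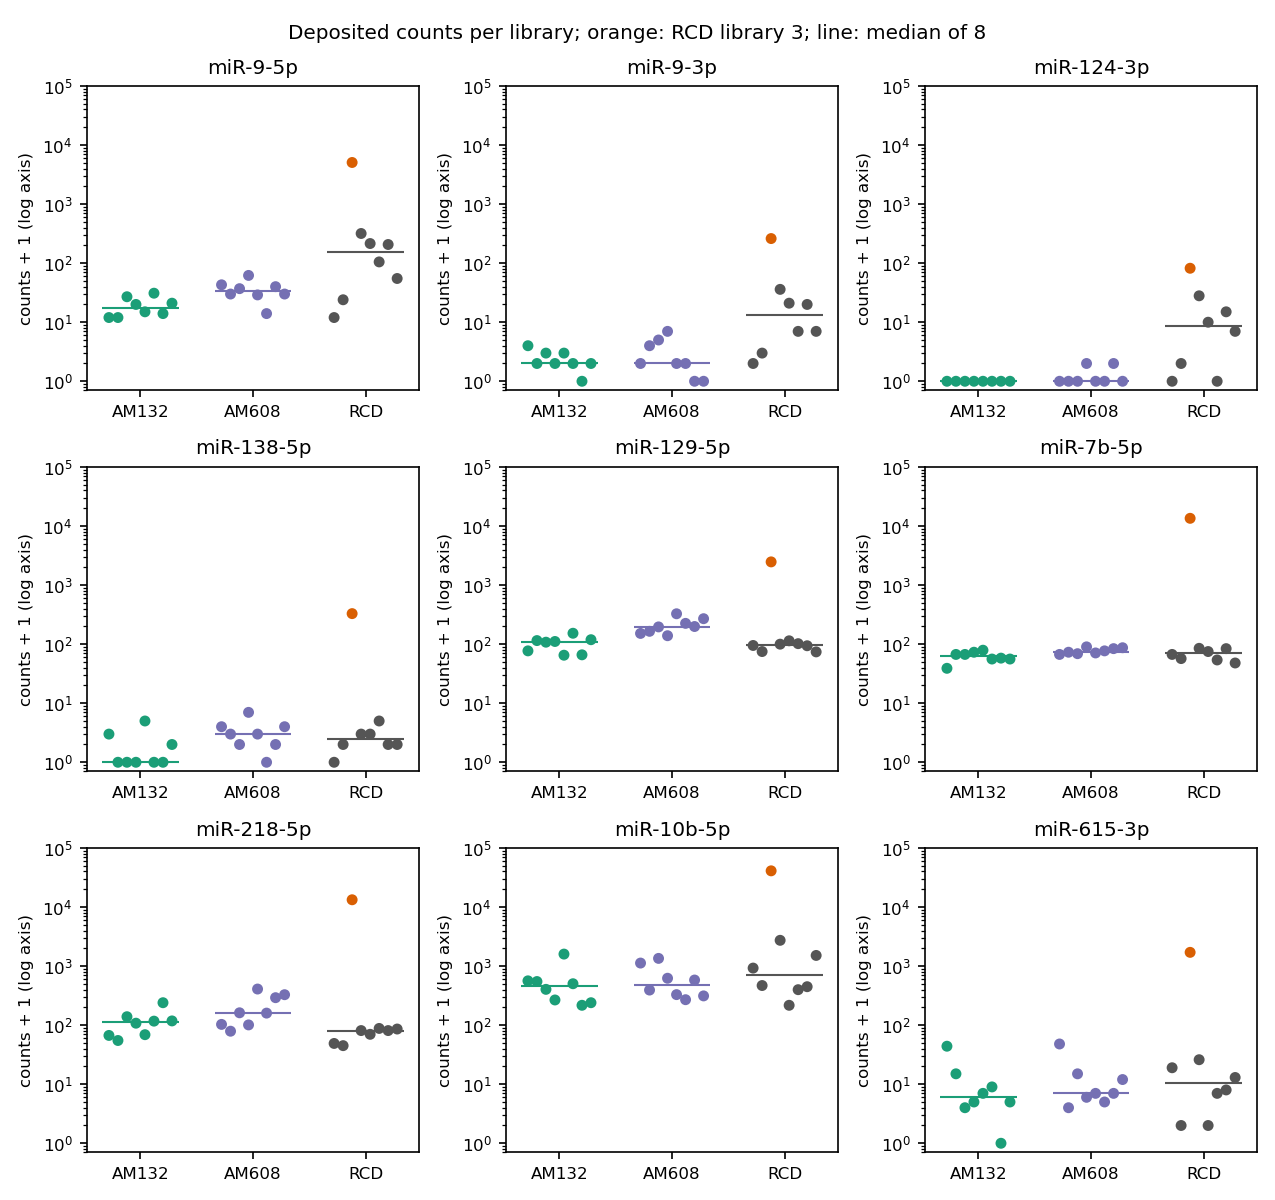
Deposited counts plus 1 (log axis) of each of the 9 miRNAs in the 24 libraries, one point per library, with AM132 left, AM608 in the middle and RCD right; lines are group medians and the orange point is RCD library 3. The orange point is the highest in all 9 panels, from 81 counts for miR-124-3p to 41054 for miR-10b-5p, while miR-9-5p, miR-9-3p and miR-124-3p are also spread upwards over several other RCD libraries.

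Outside RCD library 3 the neuronal miRNAs differed from one another. miR-9-5p had 5067 counts in RCD library 3. AM132 libraries had 11 to 30 (median 16.5) and AM608 libraries 13 to 61 (median 32.5). The remaining RCD libraries 1, 2, 4, 5, 6, 7 and 8 had 11, 23, 317, 214, 104, 206 and 54 counts. Thus 5 of 8 RCD libraries, 3 to 7, lay above all 16 obese libraries in CPM (counts scaled to a fixed, TMM-corrected library size), whereas RCD libraries 1, 2 and 8 lay within the obese range. miR-9-3p, the other arm, had 260 counts in RCD library 3. AM132 libraries had 0 to 3, AM608 libraries 0 to 6 and the other 7 RCD libraries 1 to 35 (median 6). In CPM, miR-9-3p was above every obese library in 6 of 8 RCD libraries. RCD libraries 6 and 8, which are among these, had 6 counts each, as did AM608 library 4. These were 1.18 and 0.875 CPM in RCD libraries 6 and 8 and 0.856 CPM in AM608 library 4.

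miR-124-3p was likewise found mostly in lean libraries. It had 81 counts in RCD library 3. All 8 AM132 libraries were at 0, which over their pooled 55405463 counts allows up to 0.0541 CPM by library total, and AM608 libraries had 0 or 1. RCD libraries 1, 2, 4, 5, 6, 7 and 8 had 0, 1, 27, 9, 0, 14 and 6, together 57 counts or 1.20 CPM by library total. RCD library 6, which had 104 counts of miR-9-5p, had none of miR-124-3p. The ratio of RCD library 3 to the next library was the smallest of the 9 miRNAs, 2.19, and that next library was RCD 4.

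miR-138-5p, which in neurons limits the growth of dendritic spines, had 328 counts in RCD library 3 and at most 4 in AM132, 6 in AM608 and 4 in the other RCD libraries. miR-7b-5p, known in the hypothalamus, had 13521 counts in RCD library 3. In the others it was low but even: AM132 libraries had 38 to 78 (median 61.5), AM608 libraries 66 to 89 (median 74) and the other RCD libraries 47 to 84 (median 66). The groups overlapped throughout that range. Its ratio of RCD library 3 to the highest other library was 111, the largest of the 9.

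miR-218-5p, known from motor neurons, had 13285 counts in RCD library 3. AM132 libraries had 54 to 239 (median 111.5), AM608 libraries 78 to 408 (median 160) and the other RCD libraries 44 to 87 (median 80). In CPM, 4 AM132 and 5 AM608 libraries exceeded all 7 of those RCD libraries. miR-129-5p, which in neurons acts on excitability, had 2472 counts in RCD library 3. AM132 libraries had 64 to 152 (median 108.5), AM608 libraries 138 to 326 (median 196.5) and the other RCD libraries 73 to 113 (median 94). In CPM, 7 of 8 AM608 libraries exceeded all 7 RCD libraries other than RCD library 3. Both miRNAs were therefore lower, not higher, in the remaining lean livers than in most AM608 livers.

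Both Hox miRNAs varied widely inside every group. miR-10b-5p had 41054 counts in RCD library 3. AM132 libraries had 216 to 1597 (median 452.5), AM608 libraries 269 to 1350 (median 486) and the other RCD libraries 216 to 2733 (median 468). It made up 52.8% of the counts of the 9 miRNAs in RCD library 3, ahead of miR-7b-5p at 17.4% and miR-218-5p at 17.1%. miR-615-3p had 1709 counts in RCD library 3. AM132 libraries had 0 to 43 (median 5), AM608 libraries 3 to 47 (median 6) and the other RCD libraries 1 to 25 (median 7). The 3 groups overlapped for both once RCD library 3 was set aside.

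The description of the 9 miRNAs as near absent outside RCD library 3 held for some and not for others. miR-138-5p was under 10 counts in all 23 other libraries, miR-124-3p in 21, miR-9-3p in 20 and miR-615-3p in 15. miR-9-5p, miR-129-5p, miR-7b-5p, miR-218-5p and miR-10b-5p had at least 10 counts in every library. miR-10b-5p was over 100 counts in all 23, miR-129-5p in 15, miR-218-5p in 11 and miR-9-5p in 4.

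Arms and relatives of the 9 miRNAs were compared as shares of counts within a library, which do not depend on scaling between libraries. miR-7b-5p was 17.6% of miR-7a-5p plus miR-7b-5p in RCD library 3 (17.3 to 17.9) and 0.145 to 0.259% in the other 23. That second range was narrow, with medians of 0.201% in AM132, 0.201% in AM608 and 0.217% in the other RCD libraries. miR-10b-5p was 27.1% of miR-10a-5p plus miR-10b-5p in RCD library 3 (26.9 to 27.3) and 0.237 to 3.22% in the others, with RCD library 4 at the top and RCD library 8 next at 1.94%. miR-10a-5p itself, at 110401 counts in RCD library 3, was not at its highest there.

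**Figure D2:**
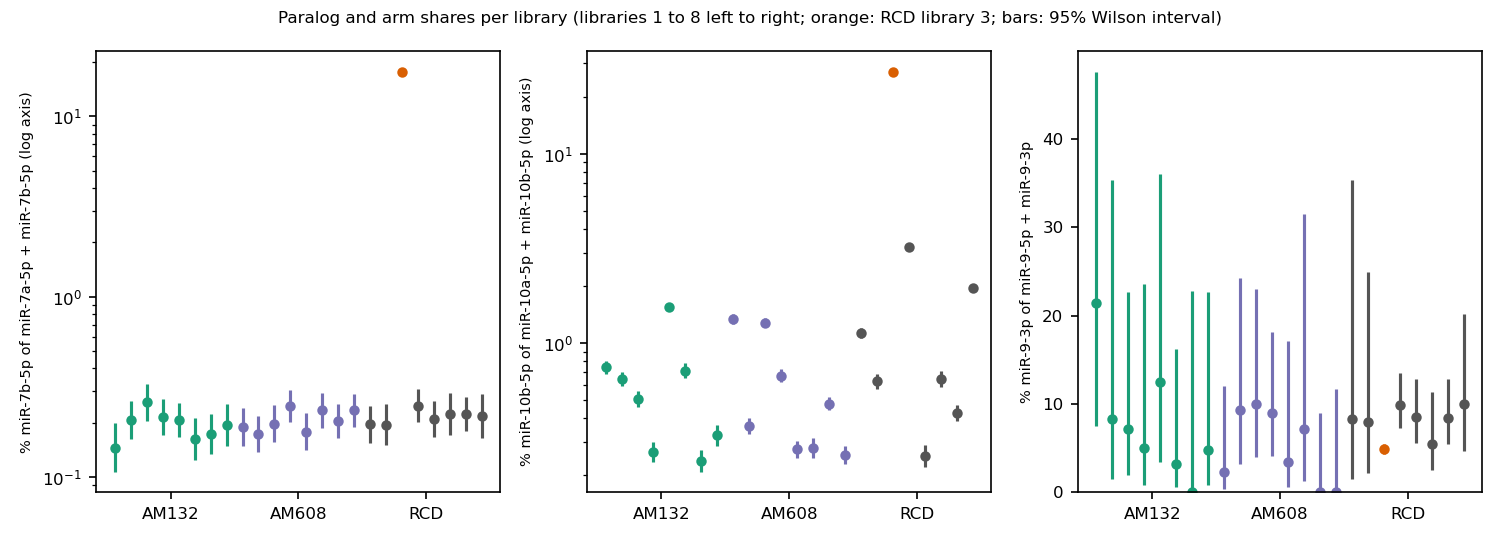
Share of miR-7b-5p in the miR-7 pair, of miR-10b-5p in the miR-10 pair (both log axes, percent) and of miR-9-3p in the 2 arms of miR-9 (percent) in each library, AM132 left, AM608 in the middle and RCD right, with 95% Wilson intervals. RCD library 3, in orange, stands at 17.6% and 27.1% in the pairs but at 4.88% for miR-9-3p, below RCD library 4 at 9.94%.

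The mix of neuronal miRNAs in RCD library 3 was set beside that in the other lean libraries that carried miR-9. miR-9-3p was 4.88% of the 2 arms in RCD library 3 (4.33 to 5.49), 9.94% in RCD library 4 (7.24 to 13.5), 8.55% in RCD library 5 (5.60 to 12.8) and 8.44% in RCD library 7 (5.47 to 12.8). The interval of RCD library 7 just met that of RCD library 3, and RCD libraries 6 (2.52 to 11.4) and 8 (4.66 to 20.1) overlapped it. miR-124-3p was 1.57% of miR-124-3p plus miR-9-5p in RCD library 3 (1.27 to 1.95), against 7.85% in RCD library 4 (5.45 to 11.2), 4.04% in RCD library 5 (2.14 to 7.49) and 6.36% in RCD library 7 (3.83 to 10.4). For miR-124-3p none of these 3 intervals overlapped that of RCD library 3, and neither did that of RCD library 8, at 10% (4.66 to 20.1). RCD library 6 with 0 of 104 counts (0 to 3.56) did overlap it. So did RCD library 1 (0 to 25.9) and RCD library 2 (0.739 to 20.2), both at few counts. miR-7b-5p was 72.7% of miR-7b-5p plus miR-9-5p in RCD library 3 (72.1 to 73.4) and 20.9 to 46.5% in RCD libraries 4 to 8. It was 85.7% in RCD library 1, 70.9% in RCD library 2, 64.7 to 85.7% in AM132 and 59.3 to 85.4% in AM608, so RCD library 3 lay within the range of the libraries with little miR-9-5p. The intervals cover counting error only: the labels name no molecular identifiers, and PCR copies are not independent molecules. They do not measure the spread between livers, and the counts of RCD library 3 are those that chose the 9 miRNAs. Overlap or its absence therefore describes these single libraries and is no test of a difference.

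The other arms of the same hairpins gave a readout that the choice of the 9 miRNAs did not use by name, though in the same libraries. Of 10 such arms, 7 had a count and 4 were highest in RCD library 3, beside 21.7% of 415 tested miRNAs outside the 9. The 2 shares are not like for like, because only 1 of these arms, miR-129-1-3p, passed the filter. That arm was not highest there, with 8 counts and up to 28 elsewhere. miR-10b-3p had 179 counts there and at most 18 elsewhere, miR-129-2-3p had 71 and at most 6, miR-138-1-3p had 21 and at most 1, and miR-138-2-3p had 20 and at most 2. miR-129-1-3p and miR-129-2-3p separate the 2 loci of miR-129-5p. miR-129-2-3p was 89.9% of the pair in RCD library 3 (81.3 to 94.8), and 15.2% of the pooled counts of the other 23 libraries. miR-10b-3p was 0.434% of the 2 miR-10b arms in RCD library 3 (0.375 to 0.502) and 0.522% pooled over the others.

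The 9 were not the most extreme miRNAs of RCD library 3. Of 293 miRNAs with at least 100 counts there, 101 had their highest CPM in that library, and 20 of these were more than 10-fold above the next library, 6 of the 9 among them. The 10 others with the highest ratio were miR-708-3p (1594 counts, ratio 260), miR-708-5p (717 counts, ratio 257), miR-196a-5p (495 counts, ratio 121), miR-666-5p, miR-323-3p, miR-6540-5p, miR-370-3p, miR-770-3p, miR-433-3p and miR-493-5p, whose ratios ran down to 22.4. miR-196a-5p is a Hox miRNA like miR-10b-5p, and miR-323-3p, miR-370-3p and miR-433-3p are among those that come from the imprinted Dlk1-Dio3 cluster. The ratio of the 9 was 11.7 for miR-9-5p, 5.43 for miR-9-3p, 40.0 for miR-138-5p, 7.68 for miR-129-5p, 33.0 for miR-218-5p, 11.0 for miR-10b-5p and 22.04 for miR-615-3p.

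**Figure D3:**
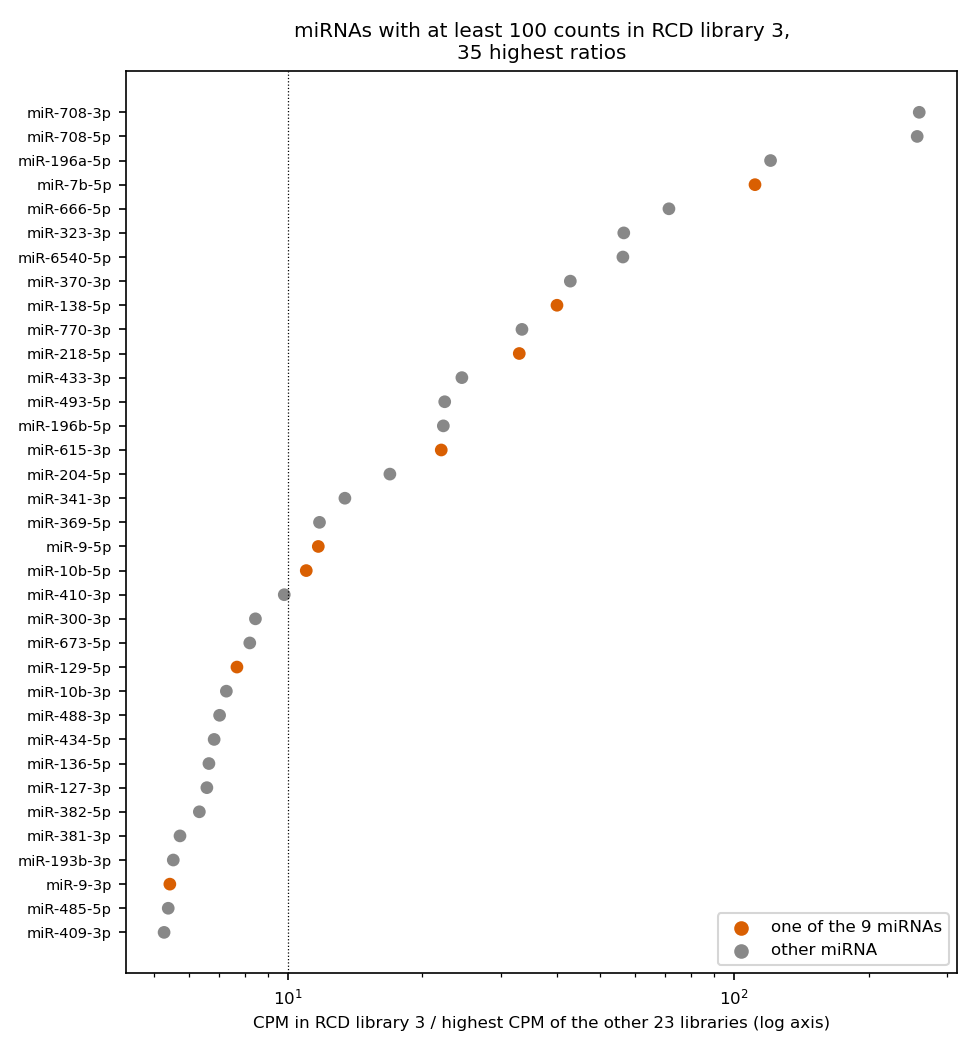
The 35 highest ratios (log axis) of CPM in RCD library 3 to the highest CPM of the other 23 libraries, among miRNAs with at least 100 counts in RCD library 3; orange points are among the 9 miRNAs described, grey points are not. miR-708-3p, miR-708-5p and miR-196a-5p rank above miR-7b-5p, the first of the 9, and the dotted line marks a ratio of 10.

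RCD library 4 was the runner-up for 4 of the 9 miRNAs, for 8 of the 20 miRNAs more than 10-fold above the next library, and for 35 of the 101. Whether the libraries share a source of these RNAs was not tested.

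Marker lists showed what else stood high in RCD library 3. As a background, that library was highest for 21.7% of 415 tested miRNAs outside the 9. It was also highest for 101 of 293 miRNAs with at least 100 counts there. The lists also hold untested miRNAs, which the 21.7% does not cover, and they were chosen with earlier results of these data known. The list counts are therefore descriptions, and no enrichment over this background is read from them. Of 21 other neuronal miRNAs with a count, 13 were highest there, among them miR-153-3p (31 counts, at most 1 elsewhere), miR-873a-5p (47, at most 1) and miR-384-5p (28, at most 1). miR-137-3p, miR-326-3p and miR-592-5p, also neuronal, were not. The list's summed level, mostly miR-7a-5p, was 7518 CPM in RCD library 3, 4836 to 5973 CPM in AM132, 4484 to 5725 CPM in AM608 and 3547 to 5679 CPM in the other RCD libraries. Of the 5 other Hox miRNAs with a count 3 were highest there: miR-196a-5p, miR-196b-5p (205 counts, at most 9 elsewhere) and miR-196a-1-3p, with only 2 counts. Of 25 miRNAs of the Dlk1-Dio3 cluster 23 were, with a summed level of 2206 CPM in RCD library 3, 68.3 to 220.4 CPM in AM132, 52.5 to 155 CPM in AM608 and 221 to 664 CPM in the other RCD libraries. Of 6 oligodendrocyte miRNAs 2 were highest in RCD library 3, miR-338-3p and miR-338-5p. The defining ones, miR-219a-5p and miR-219a-2-3p, had 7 counts and 1 count there and up to 20 and 9 elsewhere, and miR-219b-5p had 0.

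Markers of organs outside the nervous system and of other cells in liver were checked as well. The same background of 21.7% applies with the same limits, and nothing is read from the counts of lists this short. Striated muscle miRNAs summed to 334 CPM in RCD library 3, of which miR-1a-3p held 318 CPM, against 10.5 to 154 CPM in the others. On that list 4 of 7 were highest in RCD library 3, among them miR-133b-3p and miR-208a-3p with only 3 and 2 counts. Of miRNAs of kidney, adrenal and gonad, 3 of 9 were, led by miR-204-5p with 717 counts and at most 31 elsewhere, and of pancreatic miRNAs 3 of 4 were, with a sum of 14.9 CPM. Erythroid miRNAs were highest in 3 of 3, at 1773 CPM against 269 to 1519 CPM, leukocyte miRNAs in 2 of 4, led by miR-150-5p, vascular and mesenchymal miRNAs in 3 of 8, miR-218-5p itself being on that list, and epithelial miRNAs in 0 of 10. Hepatocyte miRNAs were highest in 1 of 10 and summed to 287885 CPM in RCD library 3, against 347810 to 667283 CPM in the others. The part of these cell types in the levels of the 9 miRNAs was not tested. In a bulk library, more cells of a type and more RNA per cell cannot be told apart.

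A second readout of the same libraries did not single out RCD library 3. Among 328 tRNA fragments compared, it was highest for 16 (4.88%), within the 2 to 58 of the other libraries. Among 415 tested miRNAs other than the 9, it was highest for 90 (21.7%), above the 4 to 50 of the others. The fragments had at least 10 counts in at least 8 libraries and were scaled by their own library totals. The miRNAs were filtered and scaled as in the edgeR fit, so the shares are not like for like.

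With RCD library 3 left out, the 9 miRNAs did not move as one set over the remaining 23 libraries. Spearman's rho, given as a description with no p because the libraries share groups and depth, was 0.77 for miR-10b-5p with miR-615-3p, the Hox pair. It was 0.69 for the 2 arms of miR-9, 0.67 for miR-9-5p with miR-124-3p and 0.61 for miR-129-5p with miR-218-5p. It was -0.05 for miR-9-5p with miR-218-5p and -0.50 for miR-9-3p with miR-218-5p. Within the 16 obese libraries alone the Hox pair stood at 0.69, miR-129-5p with miR-218-5p at 0.50 and the arms of miR-9, at very low counts, at 0.33. The miRNAs outside the 9 most like their summed CPM without miR-10b-5p were miR-350-5p (0.60), miR-212-3p (0.59), miR-467c-5p (0.58), miR-34c-5p (0.58) and miR-129-1-3p (0.54).

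The comparison of AM132 with AM608 asks what the anti-miR-132 oligonucleotide changed in obese liver, and no RCD library is on either side of it. RCD libraries still enter its filter, scaling, adjustment and estimate of spread: fitted on the 2 groups alone, 399 miRNAs were tested, miR-615-3p not among them. miR-9-3p, miR-124-3p and miR-138-5p had too few counts for the filter, so 6 of the 9 were tested among 421 miRNAs with edgeR's quasi-likelihood test and Benjamini-Hochberg adjustment. None of the 6 passed an adjusted p of 0.05, where 12.4% of all tested miRNAs did, and 0 of the 6 had an unadjusted p under 0.05. With limma voom 0 of 6 passed, beside 53 of all 421, and with DESeq2 1 of 6, beside 69 of all 421.

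miR-129-5p was that one. It averaged 16.5 ± 5.61 CPM in AM132 and 24.8 ± 5.02 CPM in AM608 (SD, n = 8 each), with 8.86 to 24.4 CPM in AM132 overlapping 19.7 to 33.7 CPM in AM608. Its log2 fold change was -0.59 (SE 0.563, adjusted p = 0.579, edgeR) with all libraries and -0.63 (SE 0.188, adjusted p = 0.0215, edgeR) without RCD library 3, where 10.2% of all miRNAs were called lower, although that library belongs to neither group. Over 33 alternatives its adjusted p ranged from 0.0172 to 0.707 and passed in 4, each of which leaves RCD library 3 out or replaces its count. The remaining 5 did not pass under any alternative. For miR-7b-5p the log2 fold change was 0.06 (SE 0.947) with all libraries and 0.03 (SE 0.127) without RCD library 3. The median SE of the 6 was 0.888 with it and 0.397 without it.

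miR-9-5p averaged 2.93 ± 1.28 CPM in AM132 and 4.34 ± 2.18 CPM in AM608 (SD, n = 8 each, here and in the next 3 values). miR-218-5p averaged 18.1 ± 8.87 CPM in AM132 and 23.4 ± 11.3 CPM in AM608. miR-10b-5p averaged 85.5 ± 61.3 CPM in AM132 and 79.5 ± 57.8 CPM in AM608, and miR-615-3p 1.80 ± 2.64 CPM in AM132 and 1.56 ± 2.10 CPM in AM608. In the order given, their log2 fold changes with all libraries were -0.56 (SE 0.830), -0.37 (SE 0.948), 0.11 (SE 0.801) and 0.19 (SE 1.25). Each was smaller than its SE, with adjusted p between 0.748 and 0.935 by edgeR. Without RCD library 3 they were -0.59 (SE 0.501), -0.39 (SE 0.297), 0.07 (SE 0.497) and 0.13 (SE 0.722). In that fit miR-9-5p and miR-218-5p exceeded their SE in size, and none of these was called.

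The comparisons with RCD set obese, injected livers beside lean ones. Both share the RCD libraries, and RCD library 3 chose the 9 miRNAs, so the log2 fold changes are descriptions with no p. For AM608 against RCD with all libraries, 5 of the 6 tested were called lower (adjusted p under 0.05), beside 15.2% of all miRNAs called lower, and nothing is read from this count. Without RCD library 3, 2 were called higher, beside 15.6% of all, and 1 lower, beside 15.9%. For AM132 against RCD, 5 of 6 were called lower with all libraries, beside 18.8% of all, and 1 without RCD library 3, beside 18% of all.

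**Figure D4:**
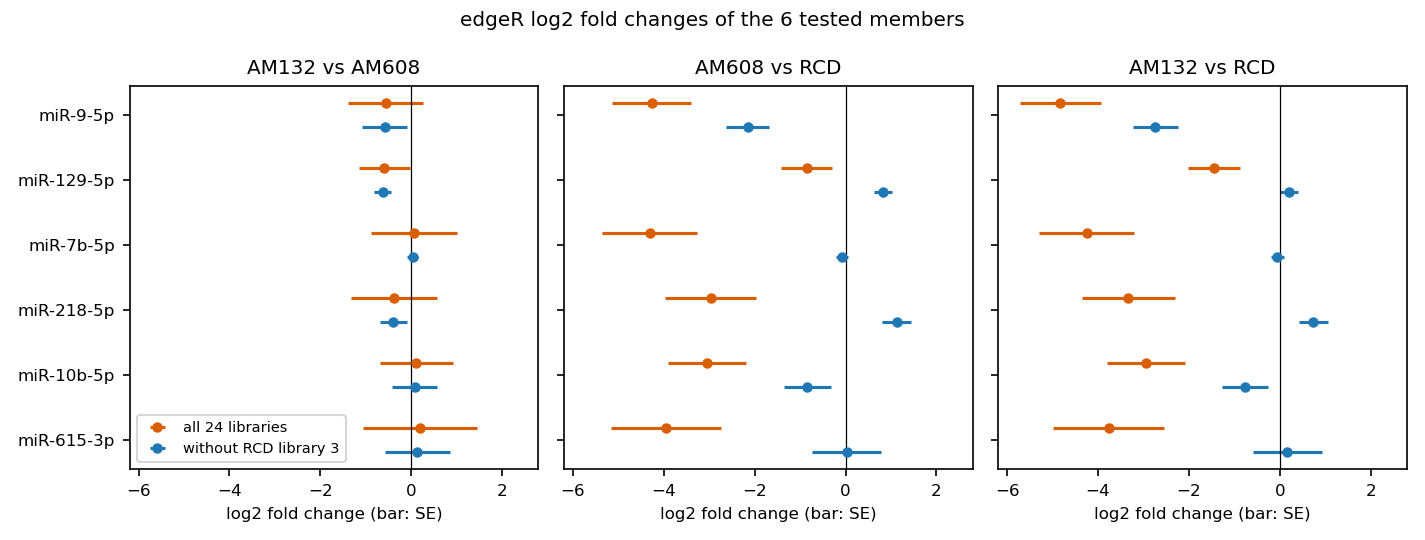
edgeR log2 fold changes (points) and standard errors (bars) of the 6 tested miRNAs in the 3 comparisons, one panel each, with all 24 libraries in orange and without RCD library 3 in blue. In both comparisons with RCD the blue points lie nearer 0 or, for miR-129-5p, miR-218-5p and miR-615-3p, on its other side, while miR-9-5p stays below 0.

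Of the 6 tested, miR-9-5p was the only one still called lower in obese livers without RCD library 3. The log2 fold change was -4.27 (SE 0.864) with all libraries and -2.16 (SE 0.472) without for AM608 against RCD, and -4.83 (SE 0.899) and -2.74 (SE 0.498) for AM132 against RCD. Without RCD libraries 3 and 4 it was -1.86 (SE 0.458) for AM608 and -2.40 (SE 0.480) for AM132, each against RCD, and it was still called lower in both. The mean was 2.93 CPM in AM132, 4.34 CPM in AM608, and in RCD 83.1 CPM over 8 libraries or 19.3 CPM over 7. The lean values were uneven: RCD libraries 1, 2 and 8 had 1.65, 3.69 and 7.87 CPM, inside the obese range with its top at 8.71 CPM, and RCD library 4 had 45.3 CPM.

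miR-218-5p changed its sign. For AM608 against RCD it was called lower at -2.97 (SE 1.00) with all libraries and called higher at 1.13 (SE 0.317) without RCD library 3, the single miRNA among the 110 called in both fits whose direction differed. For AM132 against RCD it was -3.34 (SE 1.02) with all and 0.74 (SE 0.318), no longer called, without. miR-129-5p was not called with all libraries, at -0.85 (SE 0.559) for AM608 against RCD, and was called higher at 0.83 (SE 0.196) without RCD library 3; for AM132 against RCD it was -1.44 (SE 0.570) and 0.20 (SE 0.197). Without that library the miR-129-5p means were 16.5 CPM in AM132, 24.8 CPM in AM608 and 14.1 CPM in RCD.

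miR-7b-5p had the largest change in value. It stood at -4.31 (SE 1.04) for AM608 against RCD with all libraries and -0.08 (SE 0.132) without RCD library 3, and at -4.25 (SE 1.04) and -0.05 (SE 0.133) for AM132 against RCD. Means without that library were 9.72 CPM in AM132, 9.33 CPM in AM608 and 9.86 CPM in RCD, within the spread of each group.

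The Hox pair lost its calls too. miR-10b-5p was -3.06 (SE 0.861) with all libraries and -0.84 (SE 0.513) without RCD library 3 for AM608 against RCD, and -2.95 (SE 0.858) and -0.77 (SE 0.513) for AM132 against RCD. miR-615-3p was -3.95 (SE 1.22) and 0.03 (SE 0.760) for AM608 against RCD, and -3.76 (SE 1.22) and 0.16 (SE 0.765) for AM132 against RCD. Of the 11 calls that were lost without RCD library 3 for AM608 against RCD, 3 were miR-7b-5p, miR-10b-5p and miR-615-3p, and of the 25 lost for AM132 against RCD, 4 were these and miR-218-5p.

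The 3 miRNAs below the filter are given by their means. miR-9-3p averaged 0.231 CPM in AM132, 0.266 CPM in AM608 and 1.82 CPM in the 7 other RCD libraries. miR-124-3p was at 0 in AM132, 0.0312 CPM in AM608 and 1.13 CPM in those RCD libraries. miR-138-5p averaged 0.139 CPM in AM132, 0.286 CPM in AM608 and 0.256 CPM in those RCD libraries, so its level without RCD library 3 did not separate lean from obese.

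The Dlk1-Dio3 miRNAs, also high in RCD library 3, gave another picture. Of 25 listed, 15 passed the filter. A miRNA could pass it mainly through the RCD libraries, where these stood high. For example, miR-369-3p had at most 10 counts in AM132 and 9 in AM608. The calls below are therefore descriptions only. For AM608 against RCD all 15 tested were called lower, both with all libraries (median log2 fold change -3.01; 15.2% of all miRNAs called lower) and without RCD library 3 (median -2.26; 15.9% of all). For AM132 against RCD 15 were called lower with all libraries (median -2.78), beside 18.8% of all, and 14 without (median -2.002), beside 18% of all. The median of all tested miRNAs was between -0.03 and 0.03 in these 4 fits. Of 10 tested among the other neuronal miRNAs, 2 were called lower for AM608 against RCD with all libraries, beside 15.2% of all, and 0 higher, beside 13.5% of all. Without RCD library 3, 2 were called lower, beside 15.9% of all, and 1 higher, beside 15.6%. These shares are near the background. This list had a median of -0.08 with all and 0.01 without.

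DESeq2 treated RCD library 3 differently from edgeR, since it replaces counts it marks as outliers. It replaced the deposited count in that library for 5 of the 6 tested: 41054 by 762 for miR-10b-5p, 2472 by 168 for miR-129-5p, 13285 by 148 for miR-218-5p, 1709 by 10 for miR-615-3p and 13521 by 88 for miR-7b-5p. The count of miR-9-5p was kept. The DESeq2 log2 fold changes for AM608 against RCD were 1.01 for miR-218-5p, 0.74 for miR-129-5p, -0.11 for miR-7b-5p, 0.10 for miR-615-3p and -0.78 for miR-10b-5p, near the edgeR values without RCD library 3, and -4.33 for miR-9-5p, near the edgeR value with it.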

How the data were processed

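Small RNA of 24 mouse livers, 8 per group, was sequenced on an Illumina NextSeq. Per the labels' protocols, total RNA came from the miRNeasy kit with RIN above 8.4, and 300 ng of it entered the NEBNext small RNA preparation, whose ligation favours some RNA ends over others. The authors deposited raw read counts per mature miRNA and per tRNA fragment. Per the submitters' processing notes FastQC was used; aligner, trimming, build and the treatment of near-identical sequences are not given in the sources.

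Sample titles gave the groups, and column names the samples. Of 84 library pairs within groups none matched to sampling noise (chi-square over its degrees of freedom was at least 25.7). The test was edgeR 4.0.16 (R 4.3.3) with TMM, filterByExpr, a robust quasi-likelihood fit by group over all 24 libraries and Benjamini-Hochberg adjustment over 421 miRNAs, at a threshold of 0.05. The SE is the absolute log2 fold change over the square root of F. Alternatives were RLE factors, library totals, no filter, a mean CPM of at least 10, a replicate block, 2 groups only, limma 3.58.1 voom, DESeq2 1.42.0, each library left out, and RCD libraries 3 and 4 left out. Sequences are from RefSeq and gene overlaps from GENCODE M21, both on GRCm38, a build no source states for the counts. Named miRNAs are the 9, their other arms, listed markers, the 10 with the highest ratio in RCD library 3 and the 5 with the most alike profile. The members and lists were chosen with earlier results of these data known.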

Additional observations from a re-analysis of the deposited data

Results flagged for a closer look

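Each of the 9 miRNAs was examined in each group for a library far from the rest: the gap to its nearest neighbour, as a share of the group's range, was set against Dixon's 95% critical value of 0.526 for 8 libraries. In RCD the library that stood apart was RCD library 3 for all 9, which is how the 9 were chosen, so this is a description and no test: 529.7 CPM for miR-9-5p, 27.2 for miR-9-3p, 8.47 for miR-124-3p, 34.3 for miR-138-5p, 258 for miR-129-5p, 1414 for miR-7b-5p, 1389 for miR-218-5p, 4292 for miR-10b-5p and 179 for miR-615-3p. In the obese groups 4 of the 17 sets of libraries with a spread passed. The critical value assumes normally distributed values, which low counts need not be, and the sets share libraries. No excess over chance is therefore read from this number. In AM132, miR-10b-5p stood apart in library 5 at 221 CPM (next 106) and miR-615-3p in library 1 at 8.11 CPM (next 2.38). In AM608, miR-615-3p stood apart in library 1 at 6.63 CPM (next 1.83) and miR-7b-5p in library 4 at 12.7 CPM (next 9.64).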

How the results depend on the processing

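Counts of miRNAs called over the whole table stayed within 1.5 times of 52 for AM132 against AM608, of 121 for AM608 against RCD and of 144 for AM132 against RCD in all alternatives but 3: for AM132 against AM608, library totals gave 91 and a fit of the 2 groups alone 87, and for AM132 against RCD a mean CPM of at least 10 gave 94. The last fit tested 259 miRNAs, beside 421 in the main fit. For none of the 3 was the cause of the change tested. Library totals shifted the median log2 fold change of all miRNAs to -0.21 for AM132 against AM608 and -0.16 for AM132 against RCD, beside 0.05 and 0.03 with TMM. The split of calls moved to 8 higher and 83 lower for AM132 against AM608, beside 17 and 35 with TMM, and to 27 higher and 105 lower for AM132 against RCD, beside 65 and 79. For AM132 against AM608, 0 of the 6 tested miRNAs were called with all libraries, beside 52 of 421 in the whole table. With no filter it was 0 of 9, beside 40 of 1324. The 2 groups alone gave 1 of 5, beside 87 of 399, and DESeq2 gave 1 of 6, beside 69 of 421. Without RCD libraries 3 and 4 it was also 1 of 6. For AM608 against RCD it was 5 of 6 with all libraries. It was also 5 of 6 with RLE factors, library totals and a mean CPM of at least 10, and 6 of 9 with no filter. It was 1 of 6 with voom, 3 of 5 with the 2 groups alone, 3 of 6 with DESeq2 and 3 of 6 without RCD libraries 3 and 4. For AM132 against RCD it was 5 of 6 with all libraries. It was 6 of 6 with RLE factors, library totals and a mean CPM of at least 10, and 7 of 9 with no filter. The 2 groups alone gave 4 of 5, and voom, DESeq2 and the fit without RCD libraries 3 and 4 gave 1 of 6 each. Whole-table counts in these fits are described above, and nothing is read from the numbers of the 9 called against RCD. When each library was left out in turn the numbers ran from 0 to 1, from 3 to 5 and from 1 to 6 in the 3 comparisons, RCD library 3 giving the 1, the 3 and the 1; with it kept they ran from 0 to 0, 4 to 5 and 5 to 6. The 4 came from miR-218-5p for AM608 against RCD, at -2.80 without AM608 library 2 and -2.84 without AM608 library 4, no longer called. The 6 came from miR-129-5p for AM132 against RCD, called lower when any RCD library but the third was left out and in 10 of 33 alternatives, all of which kept RCD library 3.

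Log2 fold changes changed sign as follows. For AM132 against AM608 none of these was called: library totals gave -0.18 for miR-7b-5p, -0.14 for miR-10b-5p and -0.025 for miR-615-3p, and voom gave -0.21 for miR-615-3p; leaving out single libraries gave -0.0046 to 0.11 for miR-7b-5p, -0.26 to 0.36 for miR-10b-5p and -0.78 to 1.05 for miR-615-3p. For AM608 against RCD, voom gave 0.26 for miR-129-5p and 0.085 for miR-218-5p. DESeq2 gave 0.74 for miR-129-5p, 1.01 for miR-218-5p and 0.10 for miR-615-3p. Without RCD libraries 3 and 4 these were 0.76, 1.08 and 0.36, in the same order. Leaving out single libraries gave -0.99 to 0.83 for miR-129-5p, -3.15 to 1.13 for miR-218-5p and -4.81 to 0.030 for miR-615-3p. For AM132 against RCD, DESeq2 gave 0.14 for miR-129-5p, 0.64 for miR-218-5p and 0.29 for miR-615-3p, and the fit without RCD libraries 3 and 4 gave 0.19, 0.74 and 0.57, in the same order. Leaving out single libraries gave -1.62 to 0.20 for miR-129-5p, -3.55 to 0.74 for miR-218-5p and -4.73 to 0.16 for miR-615-3p.

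Replicate numbers recur in the 3 groups but did not pair the libraries: the correlation of 24 same-numbered pairs ran from -0.48 to 0.43, 11 were over 0.1, and 4 of 24 libraries correlated best with their own number. With the replicate block, 0 of the tested 6 were called for AM132 against AM608, beside 47 of all 421 miRNAs. For AM608 against RCD and for AM132 against RCD 1 of 6 was called, while whole-table counts stayed within 1.5 times of 121 and 144. The block gave -0.0017 for miR-7b-5p for AM132 against AM608, and 0.27 for miR-129-5p and 0.32 for miR-218-5p for AM608 against RCD. Depth limits miR-124-3p, miR-138-5p and miR-9-3p, whose counts outside RCD library 3 were mostly under 10.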
